A study of Homo sapiens with 3 samples.

Results

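The transcripts examined here are those of 10 cleavage and polyadenylation factors, the machinery to which CSTF2tau itself belongs. They were chosen by their Ensembl gene IDs, for membership in this machinery: CSTF1 (ENSG00000101138), CSTF2 (ENSG00000101811), CSTF2T (ENSG00000177613), CSTF3 (ENSG00000176102), CPSF6 (ENSG00000111605), CPSF7 (ENSG00000149532), NUDT21 (ENSG00000167005), PCF11 (ENSG00000165494), FIP1L1 (ENSG00000145216) and PAPOLA (ENSG00000090060). Of these 10 gene IDs, 9 had at least 1 peak among the 13356 gene IDs listed, and together they held 211 of 202310 peaks. CSTF2 had no listed peak in any replicate. The data are peaks of RNA crosslinked to CSTF2tau and recovered by sCLIP from BE(2)-C, an established human neuroblastoma line derived from a bone marrow metastasis. In sCLIP, ultraviolet light crosslinks proteins to the RNA they touch, the RNA is trimmed, and the fragments an antibody pulls down are sequenced. There is 1 group of 3 biological replicates, all of wild-type genotype with no treatment named, and precipitated with the same antibody against CSTF2tau, so the design holds no contrast between conditions and no control library was used here. Marker genes of the line were not analysed here, because the files pair no gene ID with a symbol.

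Most mRNA 3' ends are made by cutting the nascent transcript and adding a poly(A) tail. The CPSF complex, with FIP1L1 as a subunit, reads the polyadenylation signal and cuts; cleavage factor I, built from NUDT21 with CPSF6 or CPSF7, binds upstream and influences which site is used. The cleavage stimulation factor binds U-rich and GU-rich RNA downstream of the cut, through CSTF2 or its paralog CSTF2tau, with CSTF3 as scaffold and CSTF1 as a further subunit. PCF11 belongs to cleavage factor II and also acts in transcription termination, and PAPOLA is the poly(A) polymerase. PCF11 and CSTF3 are known to be shortened by cleavage at poly(A) sites inside introns, a form of self-regulation of this machinery.

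The lists of replicates 1, 2 and 3 held 105203, 18346 and 78761 peaks. Each peak name ends in a whole number of at least 3, taken here for its read count, which no source states. On that reading the lists held 736059, 108434 and 387784 reads. These are totals of listed peaks and not the sequencing depth. Gene ID versions matched in all 4640 gene IDs that replicates 2 and 3 shared but differed from replicate 1 in 46.5% and 43.6% of shared IDs. Most of those differences were a missing last digit, while 393 and 707 IDs had another version altogether. PCF11 was among the latter, with version 6 in replicate 1 and version 5 in the others. Replicate 1 therefore carried other ID versions, and its peaks may rest on other gene models; what this does to any value below was not tested. Replicate 3 also stood apart, with 63.2% of nuclear reads on the minus strand against 48.8% and 50.6% in replicates 1 and 2. Of the listed members, 4 lie on that strand (CSTF2T, CSTF3, CPSF7 and NUDT21) and 5 on the plus strand, and the minus-strand members took 20.5%, 27.0% and 26.6% of member reads in replicates 1, 2 and 3.

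CSTF2tau reads on its own machinery were a small part of each list and by mean share PCF11, CPSF6, CSTF3 and PAPOLA led. The order below CPSF6 depended on the library: without replicate 2, FIP1L1 (0.0127%) stood above CSTF3 (0.0106%). The 10 gene IDs together held 886, 204 and 342 reads in replicates 1, 2 and 3. That is 0.120% of listed reads (95% exact Clopper-Pearson interval 0.113 to 0.129%), 0.188% (0.163 to 0.216%) and 0.0882% (0.0791 to 0.0980%), a mean of 0.132% ± 0.0510 (SD, n = 3). Replicate 2 was the highest and its interval lay above both others. Its list held 5173 gene IDs, against 11152 and 10788 in replicates 1 and 3, and each share is relative to its own list. By percentile within the lists, CSTF3 (83.0, 90.1, 75.2) and PCF11 (94.8, 96.2, 90.3) were also highest in replicate 2. CPSF6 (92.8, 87.5, 89.9) and NUDT21 (77.5, 70.3, 75.2) had their highest share but lowest percentile there. What list size does to the shares was not tested. Of the 9 listed members, 6 were listed in all 3 replicates, against 33.0% of all listed gene IDs. The median over the 9 listed members of the mean share was 0.0112%, and over all 13356 gene IDs it was 0.00195%. Shares depend on gene length, on the amount of RNA and on binding, which cannot be told apart here, nor can fewer cells with an RNA be told from less of it per cell. A gene absent from a list may still have had reads below the limit of 3 per peak, so no upper limit is given for it.

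**Figure D1:**
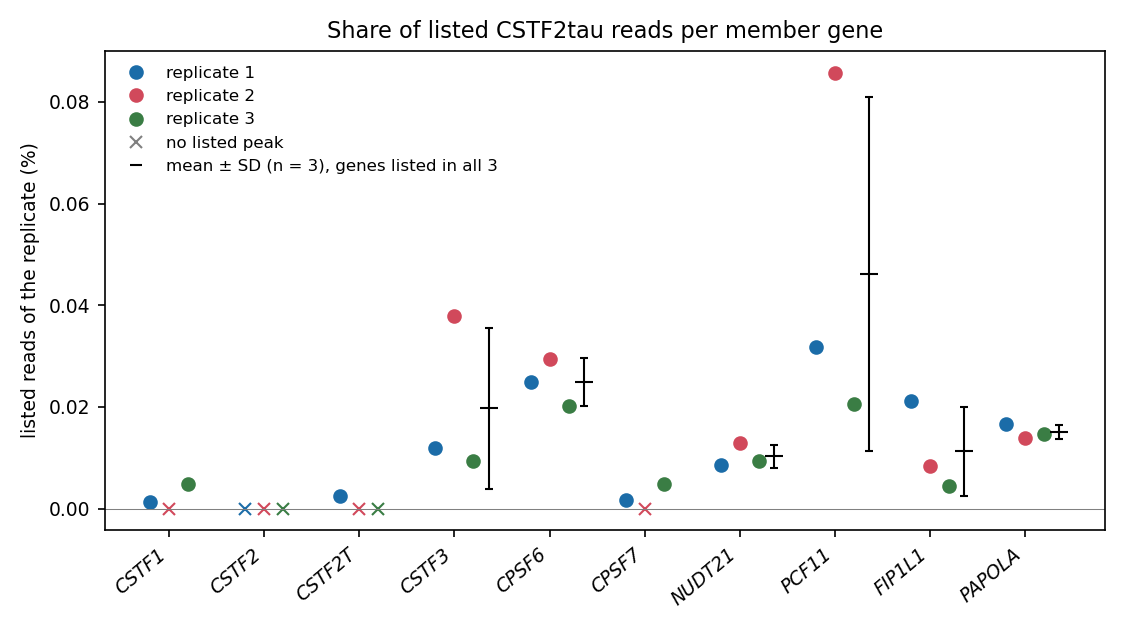
Share of listed CSTF2tau reads (percent of the replicate's listed reads, linear axis from 0) for the 10 members; circles are replicates, crosses mark a replicate with no listed peak, and the bar gives mean ± SD (n = 3) for members listed in all 3. PAPOLA varied least between replicates (0.0138 to 0.0166%), PCF11 and CSTF3 were highest in replicate 2, and CSTF2 had no peak.

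Within the cleavage stimulation factor, the scaffold subunit CSTF3 carried most reads and the CSTF2 paralogs carried few or none. CSTF3 had 88, 41 and 36 reads in 14, 7 and 8 peaks, or 0.0120%, 0.0378% and 0.00928% of the lists, a mean of 0.0197% ± 0.0158 (SD, n = 3). Replicate 2 stood above the other 2, which did not differ from each other (Fisher's exact test, adjusted p = 0.305). The share in replicate 2 was 3.16-fold that in replicate 1 (Fisher's exact test, adjusted p = 2.2e-07) and 4.07-fold that in replicate 3 (adjusted p = 2.3e-08).

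CSTF1, the smaller WD-repeat subunit, had 10 reads in 2 peaks of replicate 1, 19 reads in 4 peaks of replicate 3 and no peak in replicate 2. CSTF2T, the gene that encodes CSTF2tau, is a retrogene without introns. It had 18 reads in 3 peaks of replicate 1, of 5, 6 and 7 reads, all within 1492 nt at chr10:53457716-53459207 (-), and no peak in replicates 2 and 3. The protein's own transcript was thus listed in 1 library of 3, at the 49.3rd percentile of the gene IDs there. CSTF2, on the X chromosome, is a close paralog, and how the authors counted reads that fit more than 1 place is not given in the sources used here, so the values of this pair are uncertain.

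Cleavage factor I showed 1 well-covered large subunit, 1 sparse one and a small subunit whose share differed in no pair of replicates. CPSF6 had 183, 32 and 78 reads, or 0.0249%, 0.0295% and 0.0201% of the lists, a mean of 0.0248% ± 0.00470 (SD, n = 3). Its 3 shares lay within 1.47-fold of each other and no pair of replicates differed (Fisher's exact test, adjusted p = 0.484, 0.180 and 0.129 for replicates 1 and 2, 1 and 3, and 2 and 3). This even total hid different positions. In replicate 1, 115 of the 183 reads lay in 2 touching peaks at chr12:69644200-69644376 (+), of 91 and 24 reads, where replicate 3 had 3 reads and replicate 2 none. Without those 2 peaks, a choice made after seeing the data, CPSF6 kept 68 reads in replicate 1, or 0.00924% of that list.

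CPSF7, the alternative large subunit, had 13 reads in 3 peaks of replicate 1, 19 reads in 4 peaks of replicate 3 and no peak in replicate 2. NUDT21, the small subunit, had 63, 14 and 36 reads in 9, 3 and 7 peaks. Its shares of 0.00856%, 0.0129% and 0.00928% gave a mean of 0.0103% ± 0.00233 (SD, n = 3), and no pair of replicates differed (Fisher's exact test, adjusted p = 0.273, 0.831 and 0.374). The 14 reads of replicate 2 gave a wide exact interval, 0.00706 to 0.0217%.

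PCF11 had the highest share of the members in every replicate. It held 234, 93 and 80 reads in 27, 12 and 13 peaks, or 0.0318%, 0.0858% and 0.0206% of the lists, a mean of 0.0461% ± 0.0348 (SD, n = 3). By mean share it ranked 314 of the 13356 gene IDs. Replicate 2 was 2.70-fold above replicate 1 (Fisher's exact test, adjusted p = 1.6e-12) and 4.16-fold above replicate 3 (adjusted p = 2.4e-18), and replicate 1 was 1.54-fold above replicate 3 (adjusted p = 0.0020). With peaks counted in place of reads, PCF11 was not called between replicates 1 and 2. The SD of PCF11 was large beside its mean, and in replicate 3 its share lay within counting error of that of CPSF6, 80 against 78 reads.

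FIP1L1 was mainly a replicate 1 signal, with 155, 9 and 17 reads in 26, 2 and 5 peaks. Its shares were 0.0211%, 0.00830% and 0.00438%, a mean of 0.0112% ± 0.00872 (SD, n = 3). Replicate 1 was 2.54-fold above replicate 2 (Fisher's exact test, adjusted p = 0.011) and 4.80-fold above replicate 3 (adjusted p = 1.6e-12). PAPOLA had 122, 15 and 57 reads in 18, 3 and 11 peaks, or 0.0166%, 0.0138% and 0.0147%, a mean of 0.0150% ± 0.00140 (SD, n = 3). Its 3 shares lay within 1.20-fold of each other, the smallest ratio among the 6 members listed in all replicates, and no pair differed (Fisher's exact test, adjusted p = 0.689, 0.579 and 1).

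These differences compare libraries, and members differed about as often as other gene IDs. Between replicates 1 and 2, 3 of 9 members differed at an adjusted p under 0.05, against 38.4% of 7780 gene IDs tested. Between replicates 1 and 3 it was 5 of 9, against 55.1% of 9250. Between replicates 2 and 3 it was 4 of 8, against 49.4% of 7151. Reads of 1 peak are not independent. With peaks counted in place of reads, the counts fell to 0 of 6, 1 of 6 and 1 of 5 members. Of all gene IDs tested that way, 7.49%, 14.6% and 10.6% differed. The calls of CSTF3, PCF11 and FIP1L1 between replicates 1 and 2 were thus lost.

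The same positions were seldom listed again. Peaks of a gene ID that overlap by at least 1 nt were joined into a locus over the 3 replicates. The members had 171 loci, of which 145 came from a single list, 21 from 2 lists and 5 from all 3. The 26 shared loci were 15.2% of member loci, against 8.54% of the 182182 loci of all gene IDs. Among gene IDs listed in all 3 replicates, the shares were 14.6% of 158 member loci and 10.4% of 132344 loci. The 6 members among them were uneven: 32.3% for PCF11, 26.7% for NUDT21, 11.5% for CSTF3, 11.1% for PAPOLA, 6.45% for FIP1L1 and 3.57% for CPSF6. Leaving out replicate 1 left 10 shared loci, and leaving out replicate 3 left 9.

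PCF11 accounted for 10 of the 26 shared loci and for 4 of the 5 loci listed in all replicates. The centres of all 4 lay within 3.17 kb of its first listed base. The strongest, at chr11:82869691-82870124 (+), had 27, 22 and 20 reads in replicates 1, 2 and 3. The next, at chr11:82871400-82871695 (+), had 19, 18 and 6 reads. The locus at chr11:82868516-82868789 (+) had 25, 6 and 11 reads, and the one at chr11:82869100-82869219 (+) had 11, 8 and 5. The shared loci of PCF11 held 63.9% of its reads, against 24.5% for shared loci of all gene IDs. That background is not a like one, since it includes gene IDs listed in 1 replicate, which cannot share a locus. The share of reads for gene IDs listed in all 3 replicates was not computed.

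PAPOLA had the remaining locus of all 3 replicates, 364 nt at chr14:96999399-96999762 (+), with 16, 7 and 8 reads. Its centre lay 12.2 kb from the first and 33.8 kb from the last listed base of the gene, so it is an internal position of the span. NUDT21 had 4 of its 15 loci in 2 replicates. They include chr16:56463780-56463901 (-), centred 0.061 kb from its last listed base, with 5 reads in replicate 1 and 7 in replicate 3, and chr16:56466277-56466356 (-), its locus of highest mean share, with 5 and 7 reads in replicates 2 and 3.

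Among the sparser members, CSTF1 had 2 of its 4 loci in both replicates that list it. One, at chr20:54967741-54967820 (+), had 6 and 4 reads in replicates 1 and 3, and the other, at chr20:54970699-54970860 (+), had 4 and 9. CPSF7 had 1 of 6 loci shared, at chr11:61196314-61196438 (-), with 5 reads in each of replicates 1 and 3. CSTF3 had 3 of 26 shared, FIP1L1 2 of 31, CPSF6 1 of 28, and CSTF2T none of 3. The locus of highest mean share of CSTF3, chr11:33162913-33162989 (-), had 10 reads in replicate 2 alone. Those of CPSF6, chr12:69663708-69663832 (+), with 18 reads, and FIP1L1, chr4:54325791-54325886 (+), with 6, were likewise in replicate 2 alone.

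Each peak carries a stretch of at most 4 nt that the authors marked inside it. At shared member loci, the nearest stretches of 2 replicates lay a median of 27 nt apart over 36 pairs, against 22 nt over the 18769 pairs of all gene IDs. They were within 10 nt in 8 of the 36 pairs (22.2%), against 27.6%. At the CPSF6 locus that held 115 reads in replicate 1 and 3 in replicate 3, the stretches were 1 nt apart. At the PAPOLA locus of all replicates they were 20 to 95 nt apart, and at the strongest PCF11 locus, which joins 7 peaks over 434 nt, they were 8 to 57 nt apart. The other PCF11 loci of all replicates had distances of 36 to 68, 6 to 15 and 14 to 37 nt, in order of position. A locus of this kind can thus join neighbouring positions and need not be 1 site.

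Position along the gene was read from the listed span, which runs from the first to the last listed base of a gene ID over all replicates. No annotation of the build of the files, hg19, was used here, so introns, exons and annotated 3' ends were not assigned, and the ends of a span need not be transcript ends. Reads in the first 10% of the span (5' end) were compared with reads in the last 10% (3' end). Of the 10 members, 7 had the 5 loci and 10 end reads needed for the test. This test takes reads as independent, which reads of 1 peak are not. Reads at 1 member, NUDT21, favoured the 3' end, a call made for 18.1% of the 6382 gene IDs tested. At 3 members, PCF11, CSTF3 and CPSF7, they favoured the 5' end, a call made for 14.1%. In all, 6 of the 7 members passed the exact binomial test at an adjusted p under 0.05 in either direction, against 45.6% of gene IDs tested, but a call also needed 1 direction in every replicate with end reads. The median log2 ratio, 3' over 5' reads, was -1.95 over the 7 members and 0.18 over all gene IDs tested. With so few members, neither count nor median says that the group differs from other genes.

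**Figure D2:**
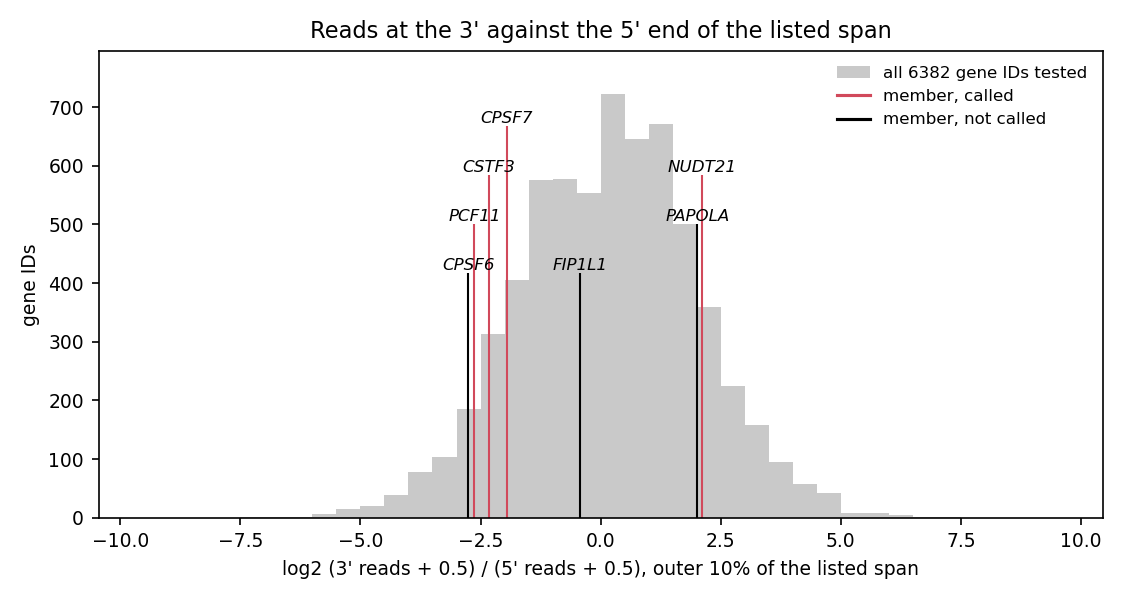
Log2 ratio of reads in the last 10% to reads in the first 10% of the listed span (0.5 added to each) for all 6382 gene IDs tested (grey histogram, number of gene IDs on the vertical axis), with lines for the 7 members tested. Red lines are members called at 1 end and black lines members not called; line height only separates the labels. PCF11, CSTF3, CPSF6 and CPSF7 lie at -2.76 to -1.95 and NUDT21 and PAPOLA at 2.02 to 2.12.

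PCF11 was the member whose reads lay at the same end in all 3 replicates. In the first 10% of its span of 29.6 kb, chr11:82868382-82897971 (+), it had 114, 61 and 44 reads, and in the last 10% it had 22, 6 and 7. The 5' part held 48.7%, 65.6% and 55.0% of its reads, against 17.9%, 15.0% and 16.7% for the tested gene IDs together. The log2 ratio (3' over 5') was -2.63 (95% interval -3.20 to -2.13; exact binomial test, adjusted p = 3.4e-32), below all but 6.10% of the gene IDs tested. The call was lost with the outermost locus alone at each end, where the log2 ratio was -1.95 (exact binomial test, adjusted p = 0.118; 2.56e-50 to 0.118 over 9 alternatives).

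The 5' cluster of PCF11 was compact. Within 5 kb of the first listed base, 16.9% of the span, lay 141 of 234 reads of replicate 1 (60.3%, exact interval 53.7 to 66.6%). In replicate 2 it was 87 of 93 (93.5%, 86.5 to 97.6%) and in replicate 3 it was 73 of 80 (91.3%, 82.8 to 96.4%). This window was chosen after the positions had been seen. Replicates 2 and 3 then had a single further peak each, of 6 and 7 reads, near the 3' end of the span. Replicate 1 had 68 reads between 5 kb and the middle of the span, where the others had none. No replicate listed a PCF11 peak over the 13.8 kb from chr11:82880398 to chr11:82894244. Peak names also carry a running number per gene ID, and the lists skip some. Over the members, 51.7%, 53.6% and 53.5% of numbers were missing in replicates 1, 2 and 3, against 54.4%, 60.2% and 52.6% over all gene IDs. Just before the 3' peaks, PCF11 numbers went from 30 to 33, 17 to 20 and 17 to 22. Numbered peaks may thus be unlisted there, which was not tested. Of the PCF11 peaks, 3 near the 3' end in replicate 1, with 16 reads, were also listed under another gene ID, and without them the log2 ratio was -3.29.

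**Figure D3:**
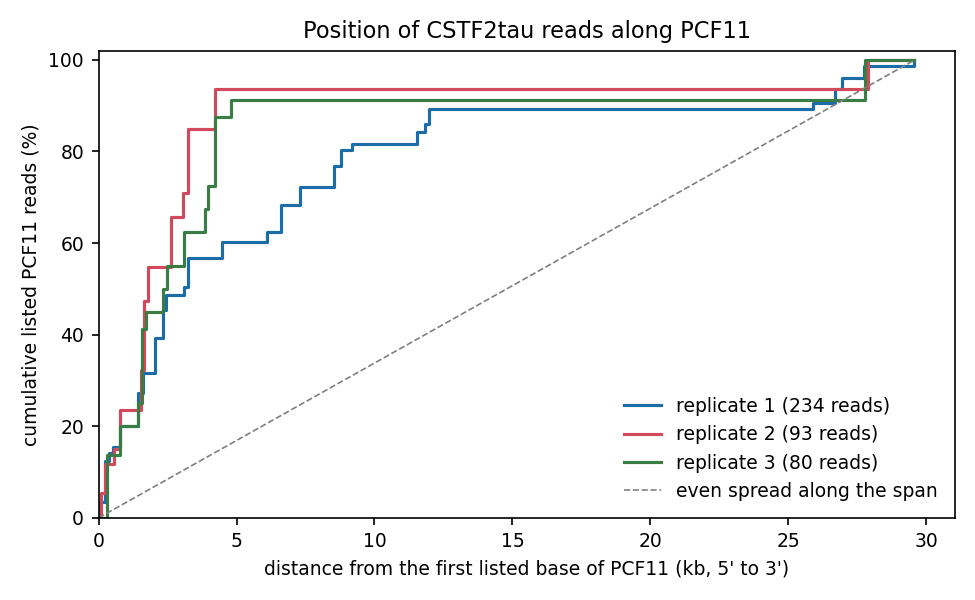
Cumulative percent of listed PCF11 reads against distance in kb from its first listed base, 5' to 3', for replicates 1 (234 reads), 2 (93) and 3 (80); the dashed line is an even spread. The curves of replicates 2 and 3 reach 93.5% and 91.3% within 5 kb and that of replicate 1 reaches 60.3%, and all are flat over the 13.8 kb without a listed peak.

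NUDT21 had its reads near the opposite end. In the last 10% of its span of 21.3 kb, chr16:56463780-56485086 (-), it had 30 reads in replicate 1 and 15 in replicate 3, against 5 in each at the 5' end; replicate 2 had none at either end. The log2 ratio was 2.12 (95% interval 1.16 to 3.32; exact binomial test, adjusted p = 1.1e-05). The read-weighted mean position, 0 at the 5' and 1 at the 3' end, was 0.704, 0.688 and 0.684, which averages 0.692 ± 0.0107 (SD, n = 3). The call was lost without replicate 1 (log2 ratio 1.49; exact binomial test, adjusted p = 0.108), with the higher-p part of each list left out, above its median p (1.08, adjusted p = 0.0559) and with the outermost locus alone (1.18, adjusted p = 0.401). Over 8 alternatives the adjusted p ran from 1.72e-07 to 0.401.

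PAPOLA had a 3' ratio of like size that was not called, because replicate 2 went the other way. It had 32, 0 and 14 reads at the 3' end and 5, 3 and 3 at the 5' end, and its log2 ratio was 2.02 (exact binomial test, adjusted p = 1.6e-05). Without replicate 2 it was called, at a log2 ratio of 2.45 in the same test (exact binomial test, adjusted p = 8.9e-07; 8.92e-07 to 0.512 over 8 alternatives). It was also called with peaks above their list's median p left out (log2 ratio 2.81; exact binomial test, adjusted p = 1.27e-06), and there it was the 3' member in place of NUDT21. Its densest part in each replicate, with the span cut into 5 equal parts, was the second from the 5' end, which held 34.4%, 80.0% and 42.1% of the reads.

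The other 5' calls rested on few reads. With peaks counted in place of reads, neither CSTF3 nor CPSF7 reached the minimum of 10 for a test. CSTF3 had 17 reads at the 5' and 3 at the 3' end, all from replicate 1 (log2 ratio -2.32; exact binomial test, adjusted p = 0.0073), and none at either end in replicates 2 and 3. Without replicate 1 the span itself was shorter, and the log2 ratio over that span was -1.65 (exact binomial test, adjusted p = 0.0195). With peaks above their list's median p left out the ratio turned to 0.82 (exact binomial test, adjusted p = 0.458; 0.00636 to 0.458 over 6 alternatives). Most CSTF3 reads lay in the interior of its span of 56.5 kb, chr11:33126523-33183021 (-), with mean positions of 0.445, 0.466 and 0.487. CPSF7 had 13 reads against 3 (log2 ratio -1.95; exact binomial test, adjusted p = 0.047), from replicates 1 and 3, and a single 3-read peak of replicate 3 sets the 3' end of its 26.7 kb span.

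CPSF6 and FIP1L1 differed in direction between replicates. CPSF6 had 115 reads at the 5' and 4 at the 3' end in replicate 1, but 0 and 3 in replicate 2 and 3 and 10 in replicate 3. Its summed ratio of -2.76 therefore described replicate 1, and without that library it was 1.95 (exact binomial test, adjusted p = 0.0619; 1.89e-28 to 0.0619 over 8 alternatives). The mean position was 0.255 in replicate 1, or 0.682 without the 2 tall peaks, against 0.801 and 0.676 in replicates 2 and 3. FIP1L1 spread over 84.9 kb, chr4:54244003-54328897 (+). It had 31 reads at the 5' and 16 at the 3' end in replicate 1, all 9 of its reads at the 3' end in replicate 2, and 3 and 0 in replicate 3 (log2 ratio -0.44; exact binomial test, adjusted p = 0.425). Without replicate 1 the ratio was 1.44.

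**Figure D4:**
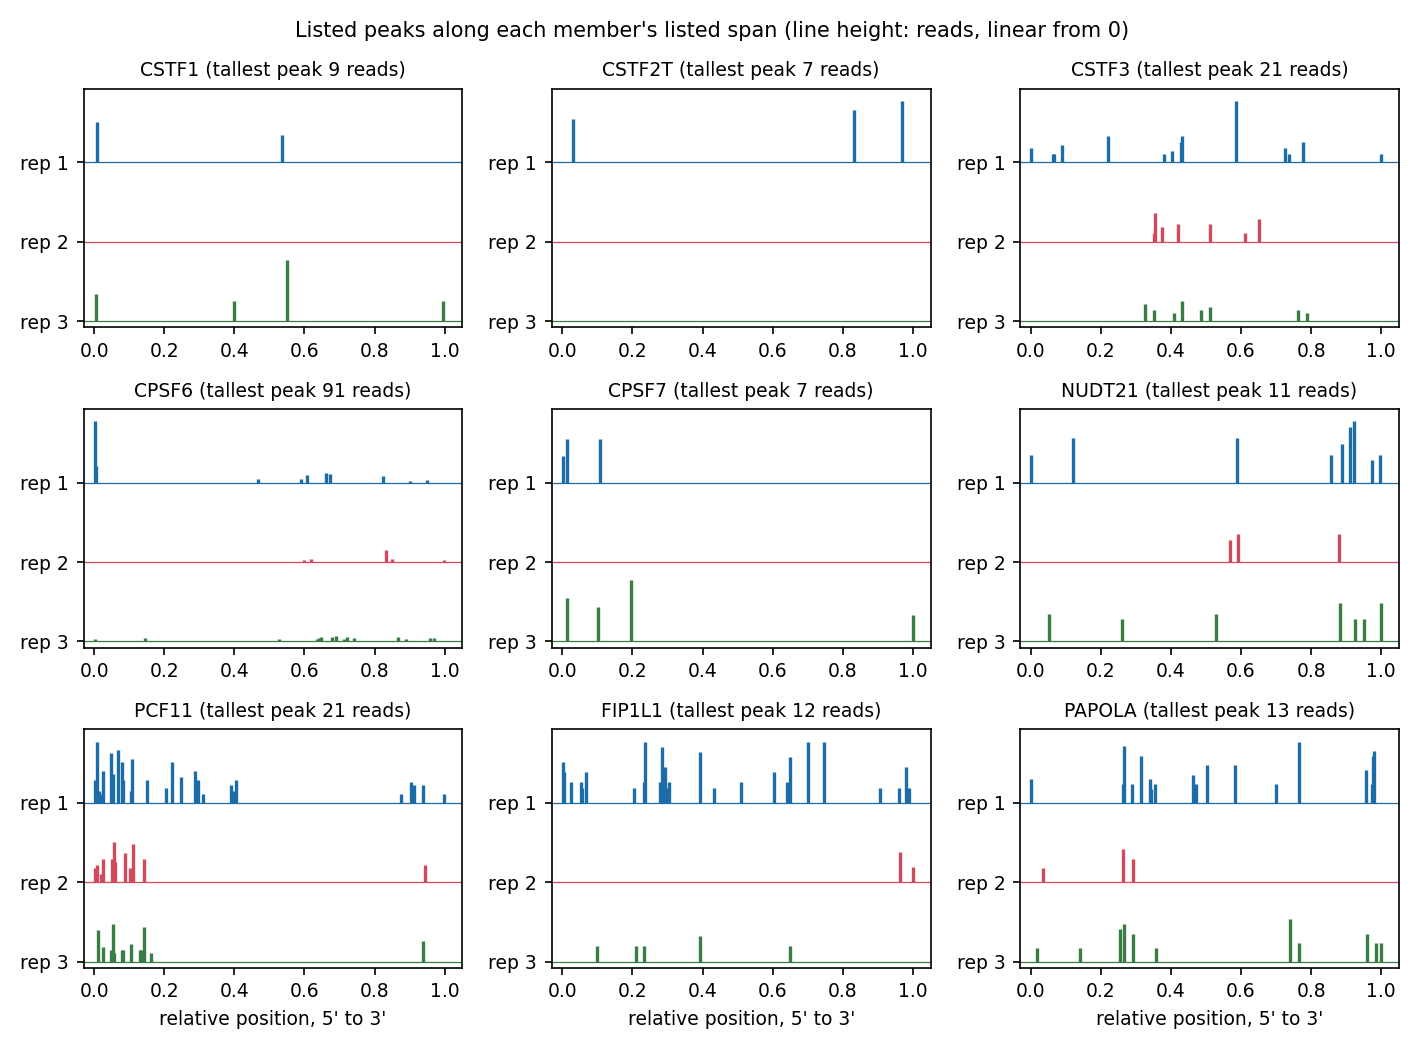
Listed peaks of the 9 listed members along their listed spans (horizontal axis: relative position, 0 at the 5' and 1 at the 3' end), 1 row per replicate. Line height is the reads of a peak, linear from 0 and scaled to the tallest peak of that gene, named in each title. PCF11 peaks crowd at the left in every replicate, NUDT21 peaks at the right in replicates 1 and 3, and the tall CPSF6 peak of 91 reads is in replicate 1.

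Per kb of listed span, PCF11 and CPSF6 were the densest of the 6 members listed in all replicates. PCF11 had 10.7, 29.0 and 6.97 reads per kb, scaled to 1000000 listed reads, a mean of 15.6 ± 11.8 (SD, n = 3). CPSF6 had 10.6, 12.5 and 8.55, a mean of 10.6 ± 2.00, and these overlap the values of PCF11. NUDT21 had 4.81 ± 1.09, CSTF3 3.48 ± 2.79, PAPOLA 3.27 ± 0.305 and FIP1L1 1.32 ± 1.03, so the last 4 stood below CPSF6 in every replicate. In replicate 1 this rested on the 2 tall CPSF6 peaks, without which CPSF6 had 3.93 per kb there and NUDT21 4.02. A listed span is shorter than the gene where its ends lack peaks, which raises these densities. Members listed in fewer replicates were left out of this ranking. Over its 1.49 kb, CSTF2T had 16.4 per kb in replicate 1, above PCF11 and CPSF6 there. In replicates 1 and 3, CSTF1 had 2.44 and 8.78 and CPSF7 had 0.662 and 1.84.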

How the data were processed

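CSTF2tau sCLIP peaks of 3 replicates were used. Per the submitters' processing notes the build was hg19 and FastQC, SAMtools, STAR and bedtools were used; their versions are unstated, and the sources used here do not name a peak caller or annotation. The authors deposited 1 list per replicate, not pooled, with a p-value per peak, below 0.05 throughout. The last number of the peak name was read as reads: its Spearman correlation with the p-value across member peaks was -0.993, -0.989 and -0.978. Intervals are exact Clopper-Pearson intervals at the 95% level and cover counting error only.

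Shares are reads of a gene ID over all listed reads of the replicate. The end test was an exact two-sided binomial test on summed reads, with 0.5 reads added per end in its log2 ratio, and pairs of replicates were compared by Fisher's exact test (two-sided). Both used gene IDs with at least 10 reads and Benjamini-Hochberg adjustment over all gene IDs tested, in Python 3.11.15 with SciPy 1.17.1. Both were first tested on simulated data with known differences, where the end test missed most of the smaller ones. The simulated reads were drawn independently, so this does not show how the tests behave on reads that come in peaks.

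Members and lists were chosen with earlier results of these data known. All 10 members are named; loci are named if in all 3 replicates, otherwise the 1 of highest mean share, and other loci were chosen after their values were seen. All 10 member symbols were found in a RefSeq table (GRCh38.p14), and the 9 listed members lay on the chromosome it gives, but the table holds 0 Ensembl IDs. Other pathway genes, marker genes, annotation classes and peak sequences were therefore not analysed here. Other settings left out a replicate, peaks under several IDs or peaks above the median p, counted peaks, or changed the overlap, window, read minimum or denominator.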

Additional observations from a re-analysis of the deposited data

Results flagged for a closer look

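Reads on the strand opposite to PCF11 lay outside the comparisons above and drew attention because there were 15 of them within its listed span in replicate 3, with 0 in replicates 1 and 2. They form 2 peaks under 2 other gene IDs, of 9 reads at chr11:82896778-82896939 (-) and 6 reads at chr11:82896778-82896867 (-). The peaks share their start, so some reads may be counted under both. They lay 1.11 and 1.15 kb from the last listed base of PCF11 and overlapped none of its peaks. Replicate 3 also had 63.2% of all nuclear reads on the minus strand, and the part of this in the 2 peaks was not tested.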

How the results depend on the processing

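Over all settings, 28 of 44 recomputed main results stayed within 1 SD of the replicates (shares) or 1.5 times (counts) and 16 moved. With 3 replicates, leaving 1 out cannot move a mean share by 1 SD, so those outcomes were fixed in advance and say nothing of stability. The member share of reads stayed within 0.104 to 0.154% in every alternative. Shared member loci numbered 26, and 15 with only the lower-p part of each list (up to its median p), 9 to 19 with a replicate left out, and 26 or 27 with an overlap of 30 or 10 nt. Members called at the 3' end numbered 1, with 0 to 2 when a replicate was left out; those at the 5' end numbered 3, with 2 to 3. With peaks in place of reads the exact binomial test called 0 at the 3' and 1 at the 5' end of 3 members tested (0 and 1 at an unadjusted p under 0.05). With the outermost locus alone it called 0 and 0 of 4 (0 and 2 unadjusted). Members called at the 5' end were 1 of 6 with that lower-p part, where the single 3' member was PAPOLA, and 1 of 5 with at least 30 end reads (21.6% of all gene IDs then). Log2 ratios of 3' over 5' reads turned for CPSF6 (-3.94 to 1.95) and FIP1L1 (-0.93 to 1.44) with a replicate left out, the positive values being without replicate 1, and for CSTF3 (0.82) with the lower-p part. Over all gene IDs, 1158 were called at the 3' and 900 at the 5' end of 6382; these counts were 617 and 540 of 4198 without replicate 1, 734 and 590 of 4029 with the lower-p part, 218 and 225 of 1684 with peaks in place of reads, and 145 and 59 of 3411 with the outermost locus alone. By Fisher's exact test, peaks in place of reads gave 0, 1 and 1 differing members for replicates 1 and 2, 1 and 3, and 2 and 3 (2, 1 and 2 unadjusted), and 226, 660 and 284 of all gene IDs in place of 2985, 5098 and 3530. A minimum of 30 reads gave 3 of 7 for replicates 1 and 3 and 2 of 5 for replicates 2 and 3, against 60.1% and 63.8% of all gene IDs. Over 53 alternative values of mean positions, 44 stayed within 1 SD. Leaving out a replicate can pass that limit only where the listed span changes, so part of these outcomes was also fixed. The split by annotation class was not run. No paired analysis was possible because there is 1 group.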
